A study of Mus musculus with 2 samples.

Results

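The urethral plate epithelium was examined in single-cell RNA sequencing of the mouse genital tubercle, the embryonic outgrowth that becomes the penis or the clitoris. A barcode was kept as a cell if it held at least 2000 unique molecular identifiers (UMIs) and 500 genes and at most 10% mitochondrial UMIs. It was called epithelial if at least 3 of the 8 genes Epcam, Cdh1, Cldn6, Cldn7, Krt5, Krt14, Krt18 and Perp had a UMI, and it was a member of the urethral plate set if it also had a UMI of Shh or Foxa1. The set held 68 cells, 41 male and 27 female, among 333 epithelial cells (204 male and 129 female) and 35965 kept cells (17254 male and 18711 female). The other 265 epithelial cells, 163 male and 102 female, had no UMI of Shh or Foxa1. The study profiled wild-type C57BL/6 embryos at embryonic day 14.5 (Theiler stage 22). There were 2 groups, a male and a female pool of 3 embryos each from 2 litters, and each pool gave 1 library. The tissue was kept for 2 hours during sex genotyping, then digested with collagenase XI for 30 minutes at 37 °C and passed through a 40 µm strainer, so embryos within a pool cannot be told apart. Between the sexes there was no replicate and no test. The intervals below are exact at 95% and reflect counting error alone.

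The urethral plate is an epithelial sheet derived from the endoderm of the cloaca that runs along the ventral midline of the genital tubercle and later forms the urethral tube. It secretes Sonic hedgehog (Shh), a signal that binds the receptor Patched on neighbouring mesenchyme, releases Smoothened and acts through the Gli transcription factors, and tubercle outgrowth depends on it. Foxa1 and Foxa2 are forkhead transcription factors typical of endodermal epithelia, and the keratins Krt8, Krt18, Krt19 and Krt7 form the filaments of simple epithelia, while Krt5 and Krt14 mark basal layers of stratified epithelia such as the surface skin.

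The libraries held 130105692 male and 144515562 female UMIs. Members had a median of 10034 UMIs and 3040 genes in the male library and 11790 UMIs and 3387 genes in the female library, against 7711 and 7649.5 UMIs in other epithelial cells. A UMI of Shh or Foxa1 is found more readily in a deep cell, so the rule can favour deeper cells. Its part in the depth of the members was not tested. Of the male members, 6 held more than 40000 UMIs each and together 51.9% of the male members' UMIs, whereas no female member was above that limit. The sex of the cells was checked with Xist, the X inactivation RNA, which had UMIs in 0 male and 25 female members, and with 4 Y-linked genes, which had UMIs in 33 male and 0 female members. The 2 libraries shared 82 barcode sequences among kept cells and 0 among members.

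The genes of the rule were described first and support nothing further. Shh had UMIs in 38 of 41 male and 25 of 27 female members, with sums of 177 and 88 counts, and Foxa1 had UMIs in 24 male and 13 female members, with 67 and 25 counts. Both genes were found in 21 male and 11 female members. Single members held up to 29 Shh counts in the male library and 9 in the female library. Cells at the limit were common, since 13 male and 6 female members held 1 UMI of Shh plus Foxa1 in all, 5 and 4 held 2, and 23 and 17 held more. Outside the epithelium, Shh had a UMI in 20 of 17050 male and 16 of 18582 female cells, and Foxa1 in 10 and 3. Free RNA can give such single UMIs, and its part was not tested. Few cells stood at the epithelial limit. Among cells with Shh or Foxa1, 6 male and 2 female members stood at exactly 3 of the 8 epithelial genes, while 0 male and 2 female cells had 2 of them. Of the given markers of the set, Epcam, an epithelial adhesion molecule, had UMIs in 39 male and 25 female members, and Krt18 in 38 and 24. Krt18 was found in 63 male and 43 female of the other epithelial cells, so it did not mark the members alone. Krt5 had UMIs in 22 male and 17 female members, against 160 and 94 of the other epithelial cells, and Krt14 in 13 and 16, against 153 and 91.

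Transcription factors that the rule did not use were found with Shh and Foxa1. They were chosen by their role after earlier results were known, and all the comparisons between members and other epithelial cells below describe sets that were cut from the same cells and carry no test. Foxa2, the close relative of Foxa1, had UMIs in 20 male and 10 female members (48.8% and 37.0%) and in 2 male and 1 female of the other epithelial cells. Its summed level was 65.6 and 55.8 counts per 1000000 UMIs of the set (CPM) in male and female members, against 0.993 and 0.777 CPM in other epithelial cells. Sox2, a factor of many epithelial progenitors, had UMIs in 24 male and 12 female members, against 3 and 4 other epithelial cells, at 84.0 and 103 CPM against 1.49 and 3.11 CPM. Pax9, known from pharyngeal endoderm, had UMIs in 12 male and 7 female members and in 1 cell of each library among the other epithelial cells. Sp8, a zinc finger factor known from limb and genital epithelium, had 28 and 5 counts in members against 3 and 0. In each of these 4 genes both libraries had the higher level in members, and most of the epithelial cells with a UMI were members. After every cell was thinned to 2000 UMIs, which removes the difference in depth, Foxa2 was still found in 5 male and 3 female members, against 1 and 0 other epithelial cells, and Sox2 in 9 and 6 against 0 and 2. A thinned cell shows a gene at this level with 1 UMI or none, so the thinned shares show presence and not an order of levels.

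Of 6577 genes with a UMI in at least 5 members of each library, 3 had 0 UMIs in all 265 other epithelial cells, and these were named after their values were seen. Gpx2, the glutathione peroxidase of gut epithelium, had 59 counts in 23 male members and 15 counts in 7 female members, of which 1 cell held 35.6% and 53.3%. It was found in 44.1% of all members and in 0.0898% of the other kept cells. Tspan8, a tetraspanin of gut and bladder epithelia, had 17 and 6 counts, and Ttc6, a gene next to Foxa1 on chromosome 12, had 9 and 7. Against a floor of 3 counts over the other epithelial cells of a library, the Gpx2 level was higher by at least 5.70 (male) and at least 4.24 (female) on the log2 scale. Atp1b1, a subunit of the sodium pump, was chosen in the same way and had 98 counts in 25 male members and 39 in 13 female members, against 8 and 2 counts in other epithelial cells.

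**Figure D1:**
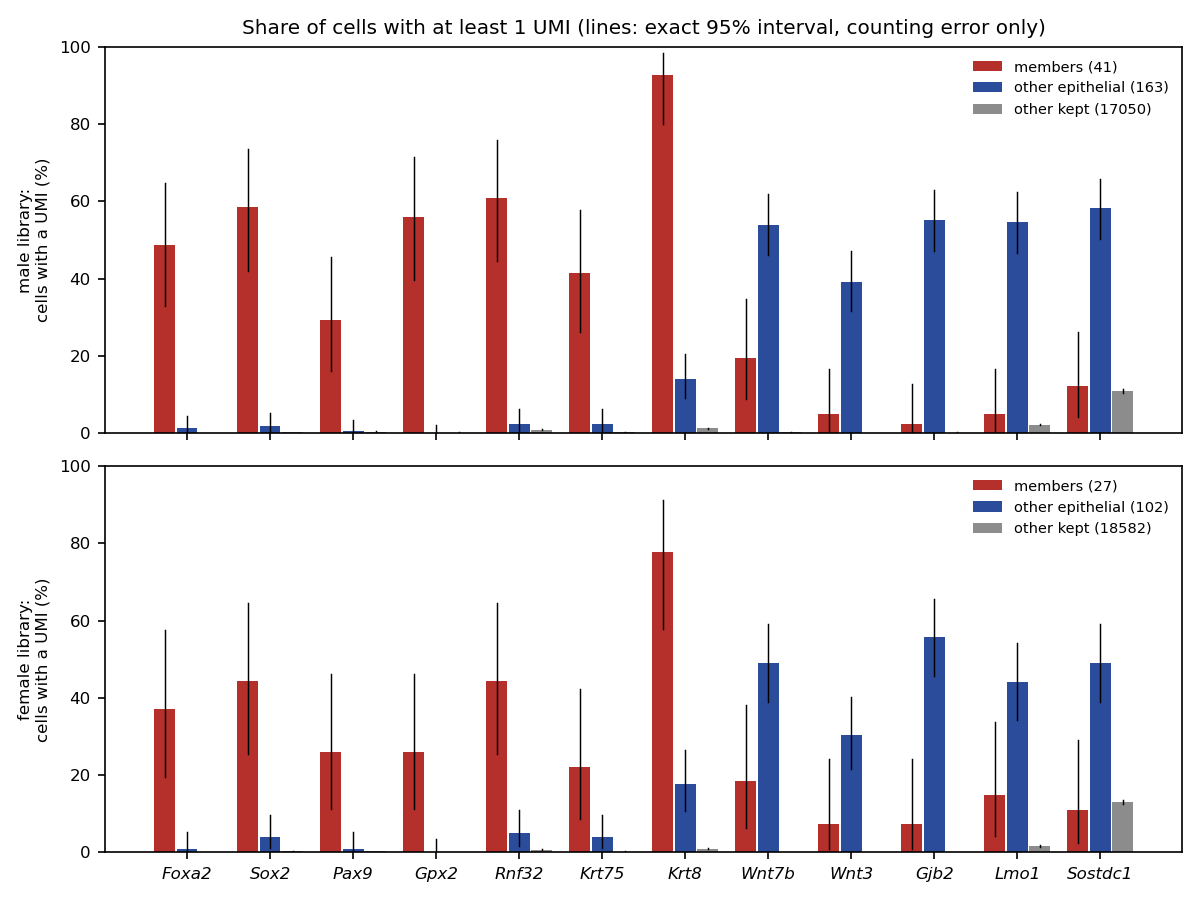
Share of cells with at least 1 UMI of 12 genes (vertical axis, percent) in members, other epithelial cells and other kept cells, for the male library above and the female library below. Lines are exact 95% intervals for counting error. In both libraries Foxa2, Sox2, Pax9, Gpx2, Rnf32, Krt75 and Krt8 were found in a larger share of members than of either other set, and Wnt7b, Wnt3, Gjb2, Lmo1 and Sostdc1 in a larger share of other epithelial cells.

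Genes that neighbour the rule's genes were examined because a neighbour shares the locus (mm10 build, GENCODE M21 genes). Shh lies on chromosome 5 (28456815 to 28467256, minus strand) and had 15 annotated genes with a start within 1000000 bases, of which 9 had a UMI in epithelial cells and 6 had at least 20 counts. Of these, Rnf32 at 728.74 kb was the 1 gene higher in members by at least 2-fold in both libraries. Rnf32, which encodes a RING finger protein, had 44 counts in 25 male members and 18 counts in 12 female members, against 4 and 6 counts in other epithelial cells, log2 ratios of 4.86 (3.40 to 6.80) and 3.50 (2.11 to 5.12). Rbm33, an RNA-binding protein gene that lies nearer to Shh, had log2 ratios of 0.32 and -0.70. Lmbr1, whose introns hold the limb enhancer of Shh, had 3 and 5 counts in members and 13 and 6 in other epithelial cells, too few to order. The transcripts Gm26894 and 9530036O11Rik start 0.882 and 8.98 kb from the Shh start and overlap it on the opposite strand, so that their 6 and 7 and their 8 and 2 counts in members may be uncertain in origin, and neither had a count in other epithelial cells. Foxa1 lies on chromosome 12 (57540628 to 57546916, minus strand), with 14 annotated genes within the same distance and 3 with at least 20 counts. Of these, Pax9 at 855.15 kb was higher in members in both libraries, with 23 and 7 counts against 1 and 1, log2 ratios of 5.93 (3.30 to 11.29) and 4.73 (1.76 to 10.22). Mipol1 and Prps1l3, which lie between Pax9 and Foxa1, had log2 ratios of 0.95 and 1.62 in the male library and -0.25 and -0.30 in the female library.

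Promoter windows of 250 bases before the RefSeq start (GRCm38.p6) are shown because Foxa1, Foxa2 and their possible targets were found in the same cells. The forkhead motif TGTTTAC was searched on both strands, for the shares in windows that also took in the 50 bases after the start. It was present in 3.65% of 32851 such windows of all genes. It was in 1 of 12 windows of the genes named below as higher in members, that of Dapl1, and in 0 of 11 windows of those named as lower. Foxa1 itself and Tspan8, which are not among these windows, also held it. They were picked by hand and only windows with the motif are shown. No count was made over other genes found mainly in members. Capitals mark the motif, which appears as its reverse complement GTAAACA in Foxa1 and Dapl1, and it begins 141, 164 and 18 bases before the start of Foxa1, Dapl1 and Tspan8. The windows are Foxa1 at chr12:57546112-57546361 on the minus strand, Dapl1 at chr2:59484403-59484652 on the plus strand and Tspan8 at chr10:115817034-115817283 on the plus strand, each written 5′ to 3′ along its gene. The Foxa1 window lies inside the GENCODE gene given above (57540628 to 57546916). It thus precedes the RefSeq start of Foxa1 and not its GENCODE start. A match is a description of these letters and not a binding site.
Foxa1: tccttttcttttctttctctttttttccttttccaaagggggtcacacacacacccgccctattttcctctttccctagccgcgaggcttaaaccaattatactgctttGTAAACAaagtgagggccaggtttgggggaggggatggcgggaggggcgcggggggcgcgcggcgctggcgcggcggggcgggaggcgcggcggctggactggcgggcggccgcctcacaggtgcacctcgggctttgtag
Dapl1: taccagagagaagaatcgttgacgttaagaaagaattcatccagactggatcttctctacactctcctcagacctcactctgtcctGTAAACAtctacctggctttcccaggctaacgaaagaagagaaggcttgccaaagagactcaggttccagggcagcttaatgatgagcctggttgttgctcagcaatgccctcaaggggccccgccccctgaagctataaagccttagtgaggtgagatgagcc
Tspan8: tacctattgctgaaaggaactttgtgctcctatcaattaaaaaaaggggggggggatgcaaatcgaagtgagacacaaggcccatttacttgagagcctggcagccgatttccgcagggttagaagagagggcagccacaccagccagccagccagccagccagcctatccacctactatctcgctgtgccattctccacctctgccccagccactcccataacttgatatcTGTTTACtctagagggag

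Across all genes, 4034 had 60 or more counts over members and other epithelial cells in each library. Of these, 22 (0.545%) were at least 2-fold higher in members in both libraries and 45 (1.12%) at least 2-fold lower, while 752 (18.6%) were higher and 1575 (39%) lower by any amount in both. The median log2 ratio over these genes was -0.13 in the male library and -0.06 in the female. Without mitochondrial, haemoglobin and ribosomal protein genes in the denominator the split was 26 higher and 33 lower, and after centring on the median it was 27 and 32. Since the rule chose the members on the same cells, these shares give the background for the lists below and are no result in themselves.

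**Figure D2:**
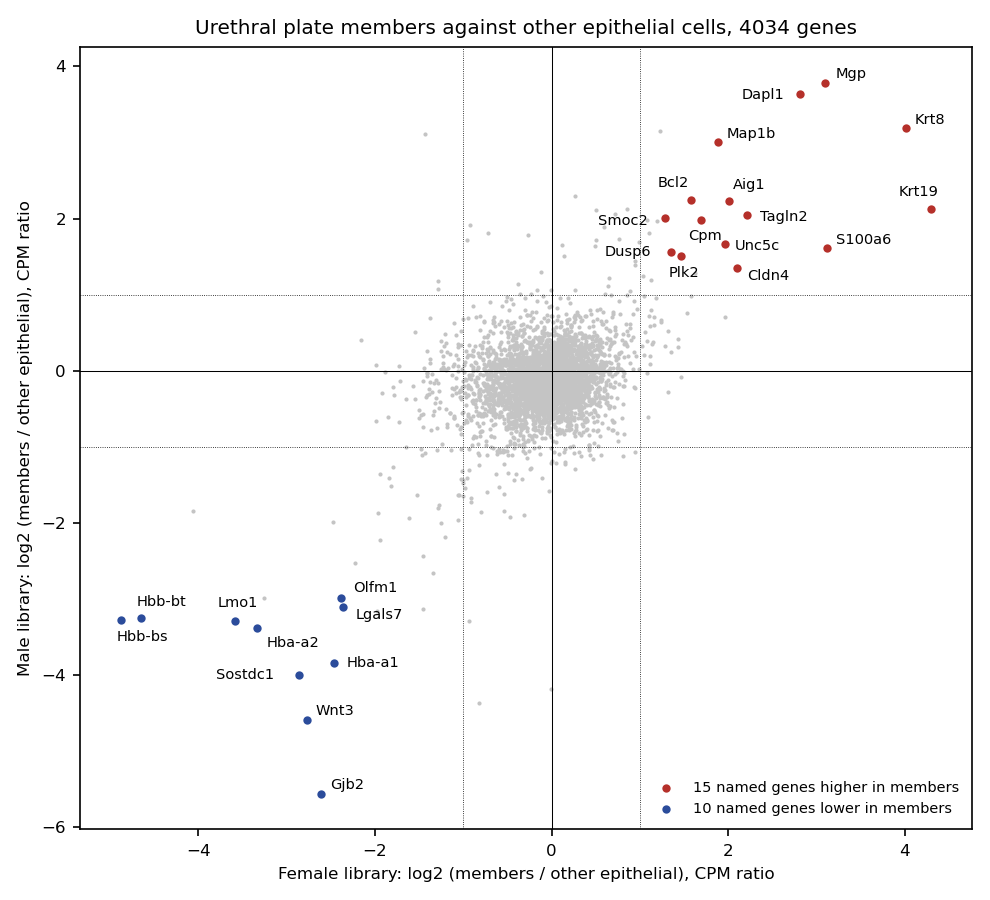
Log2 ratio of the level in members over that in other epithelial cells for 4034 genes, in the female library (horizontal axis) and the male library (vertical axis), with the 15 and 10 genes named by rule in colour. Dotted lines mark 2-fold. Krt8, Mgp and Dapl1 were the farthest at the upper right and Gjb2, Wnt3 and the haemoglobins at the lower left.

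Keratins and other genes of simple epithelia were higher in members. Of 10 measured genes of a list of simple and endodermal epithelium, 9 were higher in both libraries and 3 at least 2-fold, with medians of 0.85 (male) and 1.31 (female). Of all genes, 18.6% were higher in both libraries and 0.545% at least 2-fold. Krt8, the partner of Krt18, had 351 counts in 38 male members and 154 counts in 21 female members, against 102 counts in 23 cells and 36 counts in 18 cells of the other epithelium. Its log2 ratios were 3.19 (2.86 to 3.52) and 4.01 (3.48 to 4.58). Thinned to 2000 UMIs, 23 of 41 male and 15 of 27 female members kept a Krt8 UMI, against 8 of 163 and 5 of 102 other epithelial cells. Krt19 had 139 and 120 counts against 84 and 23, log2 ratios of 2.13 (1.73 to 2.54) and 4.30 (3.65 to 5.01), but 1 female cell held 71.7% of the female counts. The same cell, with 28044 UMIs, held 86 Krt19, 36 Krt7, 26 Krt4 and 13 Upk1b counts, Upk1b being a plaque protein of the bladder lining. Cldn4, a tight junction protein, had log2 ratios of 1.36 and 2.10, with 53.5% of the female counts in 1 cell. Sox9, a factor of epithelial progenitors, was higher by 0.99 (0.54 to 1.42) and 1.05 (0.40 to 1.68), and Wfdc2, a secreted protease inhibitor of mucosal epithelia, by 0.98 and 1.58. Krt75, a type II keratin known from the hair follicle companion layer, had 49 counts in 17 male members and 8 counts in 6 female members, against 5 and 5.

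The remaining genes named as higher had several roles. Mgp, the matrix Gla protein that inhibits calcification, had 453 and 452 CPM in male and female members against 32.8 and 52.8 CPM in other epithelial cells, a log2 ratio of 3.79 (3.40 to 4.19) in the male library. The other kept cells, which include the mesenchyme among other cell types, had 131 and 98.5 CPM. The Mgp level in members was thus above that of either other set as a whole. No level was taken for the mesenchyme alone. Dapl1, a small protein found in early epithelial differentiation, had 240 and 285 CPM in members against 19.4 and 40.4 CPM, and 1.17 and 0.826 CPM in other kept cells. Map1b, a microtubule-associated protein best known from neurons, stood at 421 and 391 CPM in members against 52.6 and 106 CPM, and Bcl2, an inhibitor of cell death, was higher by 2.25 (1.77 to 2.73) and 1.57 (1.02 to 2.12). These 2 genes were common in other kept cells as well, at 159 and 197 CPM for Map1b. Further named genes were Aig1, an androgen-induced lipid hydrolase (2.23 and 2.01), Tagln2, an actin-binding protein (2.05 and 2.21), Cpm, carboxypeptidase M (1.99 and 1.69), Unc5c, a netrin receptor (1.67 and 1.96), Smoc2, a matricellular protein (2.00 and 1.28), and Plk2, a polo-like kinase (1.50 and 1.46). S100a6, a calcium-binding protein, had ratios of 1.62 and 3.12, with 72.3% of the female counts in 1 cell.

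Genes of the surface epithelium were lower in members. Of 7 measured genes of a surface ectoderm and periderm list, 0 were higher and 6 were lower in both libraries, 5 of them at least 2-fold, with medians of -2.99 and -2.36. Of all genes, 39% were lower in both libraries and 1.12% at least 2-fold. Wnt3, a Wnt ligand of surface ectoderm, had 2 and 3 counts in members against 127 and 77 in other epithelial cells, log2 ratios of -4.59 (-7.65 to -2.70) and -2.76 (-5.07 to -1.16). Lgals7, a galectin of stratified epithelia, had 32 and 11 counts against 725 and 213, and 1 male cell held 87.5% of the male members' counts. Tfap2b, an AP-2 factor of ectoderm, had 12 and 12 counts against 282 and 178, with 91.7% of the male counts in 1 cell. Krt1, a keratin of differentiating epidermis, had log2 ratios of -1.99 and -2.47, and Gabrp, a GABA receptor subunit, had 0 and 2 counts against 63 and 72. Outside the list, Gjb2 (connexin 26, a gap junction protein) had 4 counts in 1 male member and 10 counts in 2 female members, against 498 counts in 90 male and 230 counts in 57 female other epithelial cells. Lmo1, a LIM-only transcriptional cofactor, had 21 and 5 counts against 545 and 227. Sostdc1, a secreted Wnt and BMP antagonist of hair placodes, had 19 and 10 against 800 and 274, and Olfm1, a secreted olfactomedin, 12 and 7 against 251 and 138. Thus few members carried these transcripts, and much of what was found in the male members came from single deep cells. A male member of 60687 UMIs held 51 Krt5, 36 Krt14, 17 Lmo1 and 60 Cxcl14 counts, and a female member of 31623 UMIs held 48 Krt14, 132 Cxcl14 and 9 Gjb2 counts.

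Of the 10 genes named as lower, 4 were the haemoglobins Hba-a1, Hba-a2, Hbb-bs and Hbb-bt. Hba-a2 had 15 and 10 counts in members against 414 and 382 in other epithelial cells, log2 ratios of -3.38 (-4.23 to -2.65) and -3.34 (-4.41 to -2.44), but those counts lay in 32 and 35 of the other epithelial cells. The erythroid list summed to 220 and 402 CPM in members, 3204 and 2975 CPM in other epithelial cells and 22029 and 27357 CPM in barcodes of 1 to 100 UMIs, which hold free RNA. The median cell held 274 and 444 CPM of the list among members and 397 and 432 CPM among other epithelial cells, of which single cells reached 616780 and 279068 CPM, against highest values of 1267 and 1328 CPM in members.

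Basal keratins and basal adhesion genes were mixed in members. Of 10 measured genes of the basal list, 4 were higher and 5 lower in both libraries, against 18.6% and 39% of all genes. Of the 10, 1 was at least 2-fold lower. That gene was Dsc3, a desmocollin, with 10 and 5 counts against 101 and 58. Trp63, the master factor of stratified epithelia, had 98 counts in 25 male members and 33 in 15 female members with log2 ratios of -0.41 (-0.75 to -0.09) and -0.61 (-1.19 to -0.07), so that members still carried it. Krt17 had ratios of -1.11 and -0.82, Krt15, a basal keratin, of -0.19 and -0.00, and Fermt1, an integrin activator, was higher by 0.60 and 1.16.

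Wnt genes were the first group of signalling genes. Of 11 measured Wnt ligands and receptors, 0 were higher and 8 lower in both libraries, against 18.6% and 39% of all genes. The 4 that were at least 2-fold lower were ligands. Besides Wnt3 these were Wnt7b, at 26.2 and 20.6 CPM in members against 151 and 96.4 CPM in other epithelial cells, Wnt6, at 74.8 and 88.1 against 299 and 209 CPM, and Wnt4, at 193 and 150 against 479 and 303 CPM. In all 4 the members had the lower level in both libraries, and Wnt4 was still found in 26 male and 17 female members. Wnt5a, the ligand of the mesenchyme, had a log2 ratio of -0.88 (-1.33 to -0.45) in the male library and -0.08 (-0.53 to 0.35) in the female library. Of 8 measured antagonists and response genes, 1 was higher and 4 lower in both libraries, against the same shares of all genes. Tcf7l2, a nuclear partner of beta-catenin, was higher by 0.92 and 0.76. Dkk1, a secreted antagonist, had ratios of -1.03 and -1.47 (0.28 in the female library without the epithelial cells rich in mesenchyme-list UMIs), and its receptor Kremen2 of -3.29 and -0.94. Axin2, a feedback target of Wnt signalling, had 14 and 9 counts in members and 44 and 69 in other epithelial cells, ratios of -0.25 (-1.23 to 0.64) and -1.02 (-2.21 to -0.01).

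The cells that held Shh did not have higher counts of the genes that receive the signal or respond to it. Of 4 measured Hedgehog genes besides Shh, 0 were higher and 3 lower in both libraries, 1 of them at least 2-fold, against 39% of all genes lower in both. Ptch1, the receptor and a direct target, had 89.2 and 61.7 CPM in members against 117 and 115 CPM in other epithelial cells and 158 and 173 CPM in other kept cells. Its log2 ratios to other epithelial cells were -0.39 (-0.80 to 0.00) and -0.90 (-1.63 to -0.23). Smo, the signal transducer, had 74.8 and 55.8 CPM against 85.4 and 88.6 CPM, a difference within counting error in both libraries. Gas1, a co-receptor, was the gene past 2-fold, with 55 counts in 9 male members and 21 in 7 female members against 416 and 280, log2 ratios of -1.52 (-1.95 to -1.11) and -1.82 (-2.53 to -1.18). The targets and effectors with few counts were also low. Gli1, the most direct readout of the pathway, had 4 and 0 counts in members against 30 and 32 in other epithelial cells, Gli2 2 and 0 against 31 and 26, and Hhip, a decoy receptor, 1 and 0 against 8 and 13. Gli3 had 29 and 12 counts against 46 and 55 and differed in sign between libraries, at 0.74 and -0.28. No other Hedgehog ligand was found, since Ihh and Dhh had 0 counts in members.

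Fgf signalling genes had no common direction. Of 4 measured, 2 were higher and 1 lower in both libraries, against 18.6% and 39% of all genes. Dusp6, a phosphatase induced by ERK, was at least 2-fold higher, with 49 and 25 counts against 44 and 37, log2 ratios of 1.56 (0.94 to 2.18) and 1.35 (0.56 to 2.12). Etv4 and Etv5, transcription factors downstream of Fgf, had too few counts for the list's limit and are given for their role. Etv4 had 21 and 11 counts against 7 and 2, ratios of 2.99 (1.70 to 4.46) and 4.38 (2.18 to 7.59), and Etv5 12 and 9 against 10 and 11. Fgf8, a ligand of the distal urethral epithelium, had 8 counts in 2 male members and 1 count in 1 female member, against 17 and 2 counts in 2 cells of each library among the other epithelial cells. At this depth no difference in Fgf8 was detectable. Fgfr2, the main epithelial Fgf receptor of the tubercle, had 104 and 96.9 CPM in members against 137 and 100 CPM. Among 14 measured BMP and TGF-beta genes, 3 were higher and 5 lower in both libraries and 0 passed 2-fold. These counts lay near the 18.6% and 39% of all genes. Bmp7, a ligand of the urethral plate, was at 44.6 and 73.4 CPM in members against 50.1 and 56.0 CPM, within counting error in both libraries. Bmp3, chosen after its values were seen, had 34 counts in 15 male members and 10 in 5 female members against 3 and 5. Of 2 measured Notch genes, 1 was lower in both libraries: Notch1, a receptor, with ratios of -0.96 and -1.24.

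Positional and epithelial transcription factors followed. Of 29 measured, 9 were higher and 14 lower in both libraries, against 18.6% and 39% of all genes, and 0 were at least 2-fold higher and 4 at least 2-fold lower. These included Tfap2b and the homeobox genes Dlx2 (-2.18 and -1.21) and Barx2 (-1.02 and -1.03). Hoxa13 and Hoxd13, which give positional identity to the distal limb and genital tubercle, were given for their role. Hoxa13 had 44 counts in 25 male members and 19 in 13 female members, against 34 and 30 in other epithelial cells, ratios of 1.77 (1.10 to 2.46) and 1.26 (0.35 to 2.14), and Hoxd13 ratios of 1.73 and 0.76. Both were higher in other kept cells than in other epithelial cells, at 86.4 and 85.2 CPM for Hoxa13. Isl1, a factor of the early cloacal region, had 150 and 320 CPM in members against 132 and 270 CPM, ratios of 0.19 (-0.14 to 0.51) and 0.24 (-0.08 to 0.56). Of 5 measured genes of steroid hormone action, 0 were higher and 0 lower in both libraries. Esr1, the estrogen receptor alpha, was too rare for the list's limit, with 8 and 4 counts in members against 2 and 1.

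Markers of other cell types were examined in the members. The hindgut list had 0 of 9 genes with a UMI in members, and the urothelium list summed to 38.0 and 153 CPM, with 90.0% of female Upk1a counts in 1 cell. Shh is also known from hair placodes, which the rule does not separate from the urethral plate. A list of 10 hair placode genes had a UMI of 6 genes in male and 9 in female members and summed to 72.2 and 156 CPM, against 460 and 266 CPM in other epithelial cells, and its part in the values of the members was not tested. Of the 11 immune genes 9 had 0 counts in members, as had 6 of 8 glial and 8 of 11 skeletal muscle genes. The mesenchyme list summed to 2347 and 1703 CPM in members, against 1206 and 2437 CPM in other epithelial cells and 5093 and 5051 CPM in other kept cells, and 17 and 16 of its 18 genes had a UMI. The median member had 605 and 700 CPM. Much of the male sum came from 1 member of 57526 UMIs that held 285 Col1a1 and 143 Acta2 counts. The endothelium list summed to 231 CPM in male members, of which 1 member of 49960 UMIs held 44 Cdh5 counts, and to 5.87 CPM in female members. Whether these cells are doublets was not tested beyond a score. Scrublet's automatic limit called 0 cells in either library and so gave no usable call. Removal of the highest scores took 17 of 41 male and 12 of 27 female members. It took 35 of 163 and 27 of 102 other epithelial cells, and 2382 of 17254 and 2801 of 18711 kept cells in all. In both libraries the share removed was larger in members than in other epithelial cells or all kept cells, and the cause was not tested.

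The members were not uniform. When the 333 epithelial cells were clustered without the rule's genes, 46 of the 68 members (67.6%) fell into 1 cluster of 51 cells, made of 30 members among 34 male cells and 16 members among 17 female cells. Of the other 22 members, 11 of each library, 11 lay in 1 cluster of 34 cells and the rest in further clusters. All these clusters held mostly other epithelial cells as the rule defines them, and 3 of the 11 clusters had no member. The cluster with 11 members was led by Foxd1, Pdlim3 and Alas2, and 1 with 4 members by Col1a1, Dkk1 and Acta2. Of those with 2 members, 1 was led by Cdh5, Pecam1 and Emcn and 1 by Nefm, Cdh4 and Nr2f1. The mesenchyme list summed to 2895, 5881, 1909 and 5826 CPM in these clusters, against 691 CPM in the leading cluster. Members outside the leading cluster were deeper, with medians of 15012 (male) and 13977 (female) UMIs against 9085.5 and 8554 inside. The part of depth was not tested. Under 4 other settings the leading cluster held between 82.1% and 95% members, at the finest setting only 19 of them. Members inside the cluster had a median share of mesenchyme-list UMIs of 0.0505% and 0.0360% in the male and female libraries, against 0.254% and 0.299% in members outside it. Shh stood at 257 and 377 CPM inside against 174 and 141 CPM outside, and Foxa1 at 100 and 124 against 57.9 and 23.4 CPM. The 5 non-members of the cluster, 4 male and 1 female, were shallow, with a median of 4984.5 UMIs in the male library and 7209 UMIs in the female cell. Whether they lacked Shh and Foxa1 or were too shallow to show them cannot be told apart.

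Members were also described by which of the rule's genes they held, which is a split on values the rule used and supports nothing further. The 21 male and 11 female members with both genes had 517 and 665 CPM of Krt8, against 304 and 247 CPM in the 17 male and 14 female members with Shh alone and 607 and 489 CPM in the 3 and 2 with Foxa1 alone. Sox9 stood at 132 and 165 CPM with both genes, against 38.0 and 42.1 CPM with Shh alone, and had 0 and 1 counts with Foxa1 alone. Pax9 had 21 and 4 counts with both genes, 2 and 3 with Shh alone and 0 and 0 with Foxa1 alone. Sox2 had no common order in the libraries, at 84.9 and 152 CPM with both genes against 90.2 and 66.2 CPM with Shh alone. The members with both genes were deeper, with medians of 11411 and 14630 UMIs against 8543 and 9466.5 with Shh alone, and the part of depth in these differences was not tested.

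**Figure D3:**
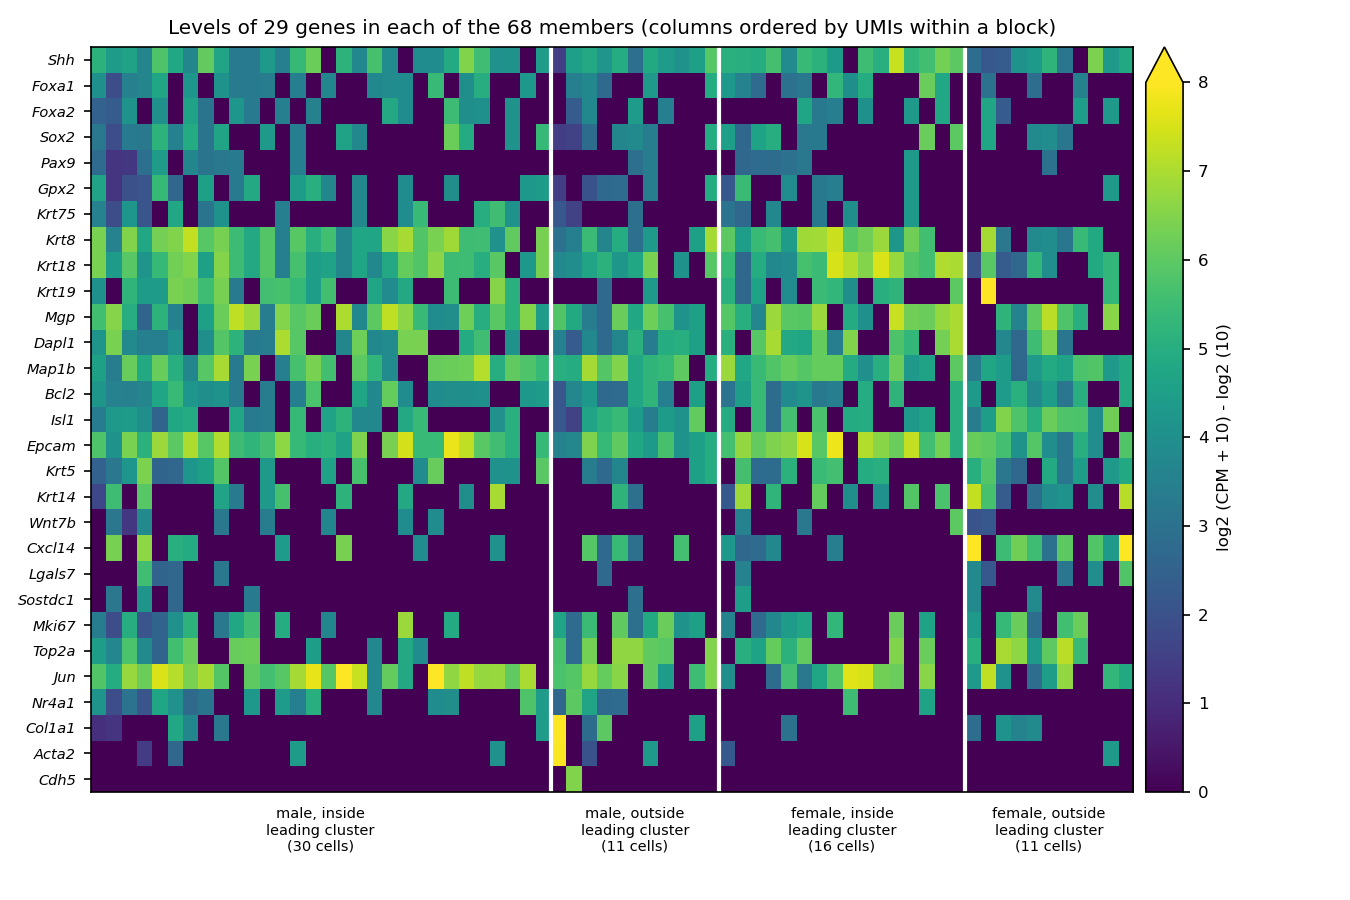
Levels of 29 genes (rows) in each of the 68 members (columns), as log2 of CPM plus 10 less log2 of 10, in 4 blocks for male and female members inside and outside the leading cluster, ordered by UMIs within a block. Krt8 and Krt18 were high in nearly every member inside the cluster. Krt14 and Cxcl14 appear in part of the members, and Col1a1, Acta2 and Cdh5 are each highest in 1 male member. Cdh5 appears in no other member, while Col1a1 and Acta2 appear at lower levels in further members.

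The male and female members were compared as 1 library against 1 library. Members were 0.238% (0.171 to 0.322) of the kept male cells and 0.144% (0.0951 to 0.210) of the kept female cells, and epithelial cells as a whole were 1.18% and 0.689%. Among epithelial cells the share of members was 20.1% (14.8 to 26.3) for males and 20.9% (14.3 to 28.97) for females, which differed by less than counting error. Thinning each cell to 2000 UMIs turned the direction of the share among kept cells, at 0.0464% (0.0200 to 0.0913) for males and 0.0588% (0.0294 to 0.105) for females, intervals that overlap. In the thinned data 8 of 120 male (6.67%) and 11 of 75 female epithelial cells (14.7%) were members. Each sex was 1 pool, so sex and pool cannot be told apart in these shares. Shh itself stood at 232 and 258 CPM in male and female members and Foxa1 at 87.9 and 73.4 CPM. Foxa2, Sox2, Krt8, Krt18 and Mgp had log2 ratios of male over female members of 0.23 (-0.55 to 1.08), -0.29 (-0.91 to 0.35), 0.03 (-0.25 to 0.31), 0.04 (-0.26 to 0.35) and 0.00 (-0.28 to 0.28), each within counting error.

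Of 2597 genes with 60 or more counts over both sets of members, 39 (1.5%) were at least 2-fold higher in male members and 58 (2.23%) in female members. By any amount 929 (35.8%) were higher in male and 1668 (64.2%) in female members, and the median log2 ratio was -0.14. The direction of this split depended on scaling. It was 63 and 33 without mitochondrial, haemoglobin and ribosomal protein genes in the denominator and 62 and 33 after centring on the median. Without the cells above 40000 UMIs, which are all male among members, it was 15 and 22.

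Several of the largest male ratios lay in single deep cells. Acta2, smooth muscle actin, had 151 counts in 7 male members and 2 counts in female members, of which 94.7% of the male counts were in 1 cell, and Col1a1, a fibrillar collagen, had 310 and 11 counts with 91.9% of the male counts in 1 cell. The same held for Lsp1, an actin-binding protein of leukocytes (87.7% of 57 counts), Sfrp1, a Wnt antagonist (82.0% of 61), and Itm2a, a transmembrane protein on the X chromosome (67.4% of 89). Without cells above 40000 UMIs, Col1a1 had a ratio of 0.96, Itm2a of 0.77 and Plagl1, an imprinted zinc finger gene, of -0.11 against 1.85 with them. Without cells rich in mesenchyme-list UMIs the Col1a1 ratio was -0.11, and with 2 UMIs of Shh plus Foxa1 required the Itm2a ratio was -0.15. The others were spread over more cells, though not evenly. Nr4a1, an immediate early nuclear receptor, had 92 counts in 22 of 41 male members and 4 counts in 2 of 27 female members, a log2 ratio of 3.36 (1.96 to 5.27), and 3.02 without cells above 40000 UMIs. Of its male counts 33.7% lay in 1 cell, the member of 49960 UMIs with 44 Cdh5 counts, and 75% of its female counts in 1 cell. In other epithelial cells the Nr4a1 ratio was -1.16 (-2.04 to -0.31). The replication-dependent histone genes Hist1h2ap and Hist1h2ae had ratios of 2.97 (2.10 to 4.00) and 1.61 (0.84 to 2.46), and Hist1h2ap was also higher in the male library in other epithelial cells (1.43) and other kept cells (1.54). Lor, loricrin of the epidermal envelope, had 77 counts in 22 male members and 9 counts in 7 female members. Male members of 68169 and 84821 UMIs held 24 and 17 of the male counts. The Lor ratio was 1.93 (0.94 to 3.12), and 1.68 without cells above 40000 UMIs.

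In none of the 10 genes named as higher in female members did 1 cell hold over 36.6% of the female counts. Paip1, a regulator of translation, had 27 counts in 18 male members and 45 counts in 17 female members, a log2 ratio of -1.90 (-2.64 to -1.18), and -1.04 in other epithelial cells. Zfhx4, a zinc finger homeobox gene (-1.57 in members and -1.65 in other epithelial cells), Crabp2, a retinoic acid binding protein (-1.42 and -1.42), and Phldb2, an adhesion protein (-1.64 and -1.19), had much the same ratio in other epithelial cells, but the Crabp2 ratio in members was 0.036 without the cells of highest doublet score. Lmo7 (-1.46), a junction protein, Hsd17b12 (-1.43), a steroid and lipid dehydrogenase, and Knl1 (-1.60), a kinetochore protein, had ratios of -0.01, -0.05 and -0.05 there. Racgap1, needed for cytokinesis, had -1.42 and -0.45, and Dmtf1, a cyclin D-binding factor, -1.44 and -0.29. Gm47283 had -1.54 and -1.27. The annotation places it on the Y chromosome, yet it had 27 counts in male and 35 in female members, so its reads cannot be assigned to that chromosome alone.

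**Figure D4:**
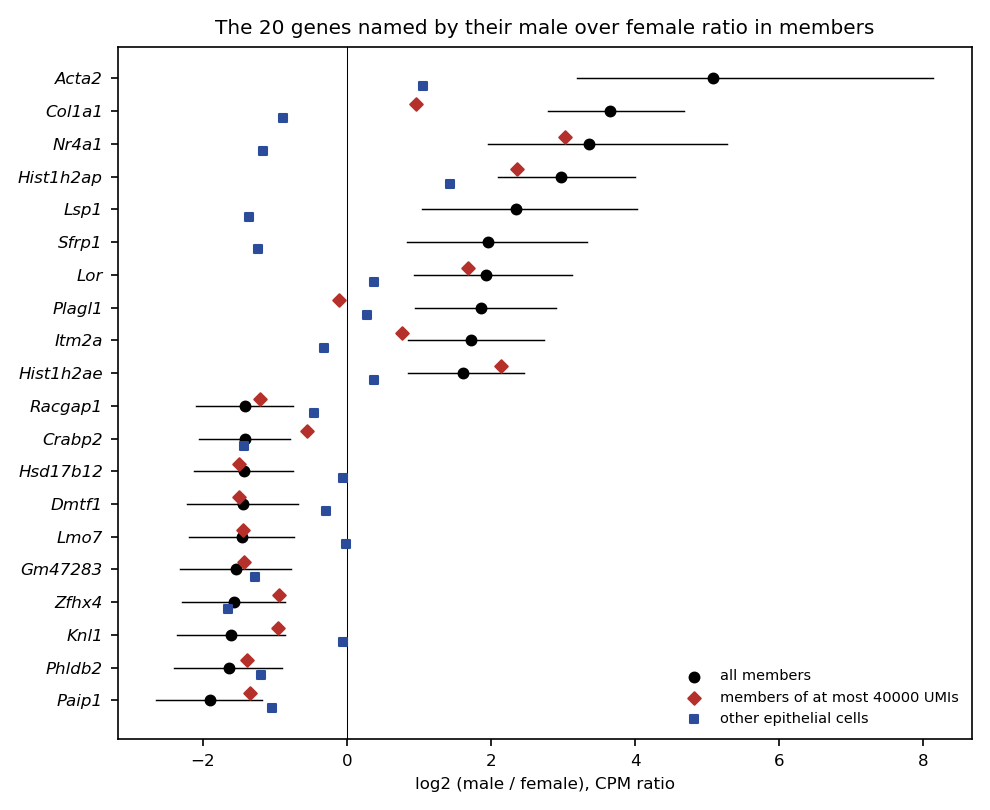
Log2 ratio of male over female level in members for the 20 genes named by rule (black, with exact 95% intervals for counting error), in members of at most 40000 UMIs (red, where at least 20 counts remained) and in other epithelial cells (blue). Acta2, Lsp1 and Sfrp1 have no red point. Plagl1 moved to -0.11 without the deep cells, while Nr4a1 and Hist1h2ap stayed above 2.

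G2 and M phase genes and immediate early genes had different summed levels in male and female members. S phase genes did not share this, at 1044 and 1007 CPM in male and female members, with 4 of 10 measured genes higher in male and 6 in female members and a median of -0.04. Of 20 measured G2 and M phase genes, 1 was higher in male and 19 in female members, with a median of -0.74, against 35.8% of all genes higher in male members. Cenpa and Ccnb1, a centromere protein and a mitotic cyclin, had ratios of -1.25 and -1.23, Cenpf, a kinetochore protein, -1.16, and Mki67 -0.24 (-0.69 to 0.22). The list summed to 2532 CPM in male and 4208 CPM in female members. Sums were 3283 and 3434 CPM in other epithelial cells and 3343 and 3745 CPM in other kept cells. Per cell the median was 792 CPM in male and 3542 CPM in female members. It was 1675 and 2245 CPM in other epithelial cells and 507 and 771 CPM in other kept cells. The female library thus had the higher sum and median in each set. Members above 1000 CPM were 19 of 41 (46.3%, 30.7 to 62.6) and 16 of 27 (59.3%, 38.8 to 77.6), intervals that overlap widely. Immediate early and heat shock genes went the other way, with 13 of 16 measured genes higher in male members and a median of 0.81. Jun, a component of AP-1, had 588 counts in 36 male members and 132 in 19 female members, a ratio of 0.99 (0.72 to 1.28), and -0.35 (-0.57 to -0.12) in other epithelial cells. Fos had 249 and 53 counts and Egr1 100 and 18. The list summed to 6610 and 5257 CPM in male and female members and to 4455 and 5377 CPM in other epithelial cells, and the median per cell was 6677 and 4245 CPM in members and 4029 and 4672 CPM in other epithelial cells. Early genes are known to respond to dissociation and handling, and with 1 pool per sex, sex and pool cannot be told apart. The counts were also made under 3 other weightings. Without cells above 40000 UMIs, 11 of 13 G2 and M genes were higher in female and 13 of 13 early genes in male members. In the leading cluster these were 10 of 11 and 11 of 13, and with cells weighted alike 18 of 20 and 15 of 16. Under these 3 weightings 61.3%, 61.7% and 57.9% of all genes, without sex chromosome list genes, were higher in female members. The shares higher in male members were 38.7%, 38.3% and 42.1%.

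**Figure D5:**
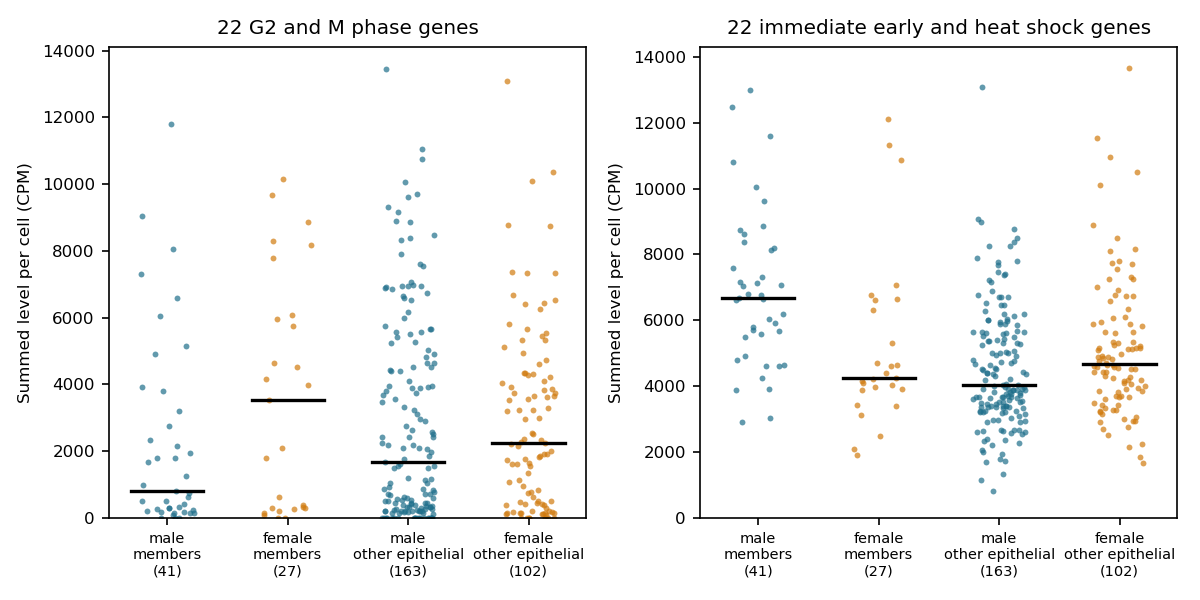
Summed level per cell (CPM) of 22 G2 and M phase genes (left) and 22 immediate early and heat shock genes (right) in male and female members and other epithelial cells, with a bar at the median. Medians of the left panel were 792 and 3542 CPM in male and female members and 1675 and 2245 CPM in other epithelial cells. Those of the right panel were 6677 and 4245 CPM and 4029 and 4672 CPM, with wide overlap of single cells in both panels.

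Relative to other epithelial cells of the same library, 6 of 14 early genes measured in both libraries were higher in members and 2 lower in both, with medians of 0.80 (male) and -0.06 (female). Of all genes, 18.6% were higher and 39% lower in both libraries. Of the early list, Klf6, a zinc finger factor, was higher by 1.99 and 1.08. Atf3, a stress-induced factor with too few counts to be among the 14, had 74 and 17 counts against 12 and 7. Btg2, an antiproliferative gene, is of a cell cycle inhibitor list instead and was higher by 1.81 and 1.10. Of 4 measured genes of that list, 2 were higher and 1 lower in both libraries. In the female library 64.7% of Atf3 and 51.5% of Klf6 counts lay in 1 cell. S phase genes were lower in members when counts were summed over cells. Of 14 measured, 0 were higher and 11 lower in both libraries, against 39% of all genes, and the list summed to 1044 and 1007 CPM in members against 1286 and 1560 CPM in other epithelial cells. Without cells above 40000 UMIs 6 of 14 were lower and 1 higher in both libraries, and with cells weighted alike also 6 and 1. In the leading cluster 12 were lower and 0 higher, so the number depended on the cells and their weighting. The median per cell was 895 and 797 CPM in members against 965 and 1337 CPM in other epithelial cells.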

How the data were processed

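Genital tubercles of 3 male and 3 female embryos were pooled by sex and gave 1 droplet library each with a 3' gene expression kit. The values are UMI counts as deposited, unnormalized whole numbers. The authors made them with Cell Ranger 3.1 on mm10, per the submitters' processing notes, and the annotation version is not given in the sources used here. A matrix covers 31053 genes and 6794880 barcodes, the kit's complete set, and no cells had been called in it.

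The members and the gene lists were chosen with earlier results of these data known. Counts were summed over the cells of a set in a library and divided by the set's UMIs, in counts per 1000000 (CPM). The 10 genes of the rule were left out of counts of genes between members and other epithelial cells and kept in those between male and female members. Ratios carry exact conditional intervals for 2 Poisson counts and shares exact Clopper-Pearson intervals, and a count of 0 was set to a floor of 3 counts for a bound. Intervals and floors leave out everything but counting error. No test was made between 1 library and 1 library, and the spread between embryos is unknown. The 3' counts do not allow levels of different genes to be compared, and the strand setting of the counting is not given in the sources used here, so overlapping antisense genes are uncertain.

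Named genes were, for male against female members, the 10 highest and 10 lowest ratios of genes with 60 or more counts in sum and 50 CPM in the higher library, without sex chromosome list genes. For members against other epithelial cells they were the 15 highest and 10 lowest by the ratio nearer to 0 of both libraries, under the same limits in each library. Up to 5 genes of each of 39 lists (645 genes in all) were named likewise, plus genes a sentence on a role needed. Doublets were not removed in the main values. For clusters, each cell was scaled to 10000 counts, the values were log-transformed, and 1977 variable genes entered 15 principal components, and a Leiden partition (resolution 1) was made on 10 neighbours (scanpy 1.11.5, igraph 0.11.9, seed 0). Intervals came from scipy 1.17.1 in Python 3.11.15, and the ratio steps were tested on simulated counts with known answers. Alternatives changed the limits on cells and on the rule, doublets, depth, denominator, weighting, centring and thresholds.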

Additional observations from a re-analysis of the deposited data

Results flagged for a closer look

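For 10 of the genes described, the male over female log2 ratio had opposite signs in members and in other epithelial cells, with counting intervals that excluded 0 in both. With 1 library per sex the difference between the sets was not tested. Nr4a1 had 3.36 in members and -1.16 in other epithelial cells, and Jun and Ier2, both immediate early genes, had 0.99 and 0.49 in members and -0.35 and -0.65 in other epithelial cells. Col1a1 had 3.65 and -0.88, Lsp1 2.35 and -1.35 and Sfrp1 1.96 and -1.23, and in members 91.9%, 87.7% and 82.0% of their male counts lay in 1 cell. In the other direction, Krt19 had -0.95 and 1.22 and S100a6 -0.93 and 0.58, with 71.7% and 72.3% of the female members' counts in 1 cell. Gjb2 had -2.48 and 0.47 from 4 and 10 counts in members. Hbb-y, an embryonic haemoglobin, had -1.12 and 3.06, and -0.62 in other kept cells. Its erythroid list reached 616780 (male) and 279068 (female) CPM in single other epithelial cells, against medians of 397 and 432 CPM.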

How the results depend on the processing

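No paired analysis was possible because each sex has 1 library, and for the same reason no replicate could be left out. Of 280 male over female ratios of named genes under the alternatives, 250 moved by less than their counting interval, 25 by more, and 5 changed sign. Of 3878 ratios of members over other epithelial cells these were 3483, 383 and 12. A change of sign was counted only for measured genes whose main ratio was at least 2-fold. Smaller ratios that changed sign are therefore among the 3483 and 383, and their number is not given. A gene needed a summed count of 20 to give a value under an alternative. The alternatives without cells above 40000 UMIs and with the leading cluster alone were chosen after seeing the data, and the causes of these changes were not tested.

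The share of members among kept cells was 0.238% male and 0.144% female. It was 0.415% and 0.227% with a minimum of 5000 UMIs, 0.139% and 0.0695% with Foxa1 alone, 0.161% and 0.0943% without the highest doublet scores and 0.0464% and 0.0588% after thinning to 2000 UMIs. With 2 UMIs of Shh plus Foxa1 it was 0.162% in the male library, and with a mitochondrial limit of 5% it was 0.450% in the female library. The share among epithelial cells (20.1% and 20.9%) was 5.88% and 13.9% with a mitochondrial limit of 5%, 14.04% and 13.9% with 2 epithelial genes and 11.8% and 10.1% with Foxa1 alone. In the male library it was 13.7% with 2 UMIs of Shh plus Foxa1 and 6.67% after thinning.

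Genes at least 2-fold higher in male and in female members (39 and 58) were 3 and 1 with a mitochondrial limit of 5%, 21 and 33 with Foxa1 alone, 0 and 0 after thinning, 284 and 308 at a summed count of 20 and 9 and 8 at 200. They were 63 and 33 without mitochondrial, haemoglobin and ribosomal protein genes, 62 and 33 after centring, 118 and 311 at a fold of 1.5, 11 and 4 at a fold of 3, and 15 and 22 without cells above 40000 UMIs. Male-higher genes were 21 without mesenchyme-rich cells, and female-higher genes were 28 without the highest doublet scores and 32 in the leading cluster.

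Genes at least 2-fold higher and lower in members (22 and 45) were 0 and 20 with a mitochondrial limit of 5%, 0 and 2 after thinning, 71 and 149 at a summed count of 20, 3 and 16 at 200, 59 and 116 at a fold of 1.5 and 10 and 18 at a fold of 3. Lower genes were 72 with 2 epithelial genes, 28 without the highest doublet scores and 93 in the leading cluster.

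Male over female ratios that changed sign were Itm2a (-0.15 with 2 UMIs of Shh plus Foxa1 and -0.000929 in the leading cluster), Crabp2 (0.036 without the highest doublet scores), Col1a1 (-0.11 without mesenchyme-rich cells) and Plagl1 (-0.11 without cells above 40000 UMIs). In the male library the ratio of members over other epithelial cells of Tagln, a smooth muscle gene, was -2.21 with 2 UMIs of Shh plus Foxa1, -2.05 with Foxa1 alone, -2.70 without mesenchyme-rich cells, -0.88 without cells above 40000 UMIs and -2.60 in the leading cluster. That of Col1a1 was -0.33, -0.53, -0.93 and -1.20 under the same settings apart from the one on 40000 UMIs. After thinning the male Msx2 and Npnt ratios were 1.07 and 0.35, and without mesenchyme-rich cells the female Dkk1 ratio was 0.28.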

Other observations

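Among barcodes of at least 1000 but under 2000 UMIs, which were too shallow to be kept, 12 male and 14 female met the epithelial limit and 0 of either had a UMI of Shh or Foxa1. Further genes with few counts were seen in members of both libraries and chosen after their values were known. Agr2, a disulfide isomerase of secretory endoderm, had 36 counts in 9 male members and 4 counts in 3 female members, against 3 and 0 counts in other epithelial cells. Hottip, a long non-coding RNA at the HoxA cluster next to Hoxa13, had 7 and 6 counts in members against 1 and 2. Lgr5, a Wnt-dependent receptor of progenitor cells, had 18 counts in 11 male members and 1 count in 1 female member, against 1 and 4 counts, so that the libraries did not share a direction.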
